A study of Mus musculus with 7 samples.

Results

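Acute phase proteins are plasma proteins whose production by the liver changes in inflammation. Here they were followed through 10 genes chosen by name: Saa1, Saa2, Saa3, Saa4, Lcn2, Orm1, Orm2, Hp, Hpx and Apcs. A probe set, the group of oligonucleotides that reads a transcript, counted as a member where the platform annotation gave it a single symbol from this list. This gave 12 probe sets for 9 genes, of 12422 probe sets and 8251 named genes in all. Saa1 had no probe set of its own and was not analysed here, and 1 probe set annotated to both Orm2 and Orm1 was left out.

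The measured tissue was liver of female mice aged 24 to 26 months with free access to standard food, on Affymetrix U74Av2 arrays. All 7 mice form 1 group, titled as normal and fed ad libitum, with the source given as phenotypically normal, +/+ or +/df. The description field names the Ames dwarf genotype df/df instead, and the titles were followed. The mice are numbered 1, 2, 3, 4, 6, 7 and 8 in their titles. There is thus no comparison between groups, and the data show levels and the spread between mice. No label states that each RNA came from a separate extraction, so the spread may hold a technical part.

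When tissue is injured or infected, macrophages release interleukin-1, tumour necrosis factor and interleukin-6, and hepatocytes answer through NF-kappaB, STAT3 and C/EBP factors. Some genes are nearly silent at rest and rise many-fold, such as the serum amyloid A genes Saa1 and Saa2, whose products ride on high density lipoprotein. Others are made at rest in large amounts and rise less. Saa1, Saa2, Saa3 and Lcn2 were classed as strongly inducible, and Saa4, Orm1, Orm2, Hp, Hpx and Apcs as constitutively bright. The classes follow textbook roles and not the signals, and Apcs is also an inducible reactant in mice. Orm2 and Saa4, classed as bright, had mean signals of 1106 and 1273. The brighter of 2 Saa2 probe sets, classed as inducible, had a mean of 3739 and a lowest value of 1165.

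The promoters of the strongly inducible genes are shown because the members of this class differ in how alike their upstream sequences are. They do not show which transcripts a probe set reads, and no transcript or probe sequences were compared. Each line gives the 250 bases before the transcription start from RefSeq, build GRCm38.p6, read 5′ to 3′ on the gene's strand. Capitals mark matches to the C/EBP motif TTGCNNAA, searched on both strands. For Saa1 and Saa3 the start used in the table lies inside the gene's full span.
Saa2 (chr7:46751583-46751832, plus strand): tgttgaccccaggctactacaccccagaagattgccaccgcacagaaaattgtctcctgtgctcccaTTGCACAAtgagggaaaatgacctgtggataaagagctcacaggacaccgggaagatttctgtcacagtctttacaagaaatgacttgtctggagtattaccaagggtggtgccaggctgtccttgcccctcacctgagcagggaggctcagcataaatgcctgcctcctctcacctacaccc
Saa1 (chr7:46742981-46743230, minus strand): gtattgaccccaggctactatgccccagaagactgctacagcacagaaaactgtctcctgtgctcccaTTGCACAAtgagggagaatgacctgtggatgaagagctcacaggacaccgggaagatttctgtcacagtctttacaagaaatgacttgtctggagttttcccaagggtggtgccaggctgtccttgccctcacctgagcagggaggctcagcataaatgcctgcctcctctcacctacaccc
Saa3 (chr7:46715677-46715926, minus strand): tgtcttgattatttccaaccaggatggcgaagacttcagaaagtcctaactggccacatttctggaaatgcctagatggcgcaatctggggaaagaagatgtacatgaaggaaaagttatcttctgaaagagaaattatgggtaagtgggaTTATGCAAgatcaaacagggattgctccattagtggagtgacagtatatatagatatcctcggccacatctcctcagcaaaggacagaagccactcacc
Lcn2 (chr2:32387740-32387989, minus strand): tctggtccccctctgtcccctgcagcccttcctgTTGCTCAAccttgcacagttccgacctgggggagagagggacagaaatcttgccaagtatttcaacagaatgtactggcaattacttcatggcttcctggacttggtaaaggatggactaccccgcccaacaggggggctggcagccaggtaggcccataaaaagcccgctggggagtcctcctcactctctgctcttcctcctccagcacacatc

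The Saa2 and Saa1 promoters were identical at 238 of 251 aligned positions, or 94.8%, whereas Saa2 and Saa3 matched at 52.4% and Saa2 and Lcn2 at 53.3%. The gene table also lists Saa1 as a synonym of Saa2 and Saa2 as a synonym of Saa1. Saa3, Saa4, Saa1 and Saa2 lie side by side on chromosome 7, at 46711998-46719615, 46727992-46732603, 46740497-46743181 and 46751833-46754313 in GRCm38.p6. Signal from Saa1 and Saa2 cannot be told apart with these names. The C/EBP motif was found in 7 of the 8 member promoters held by the table, against 9.56% of all 32851 promoters of the same length. It began 183 bases before the start in Saa2, 182 in Saa1, 99 in Saa3 and 216 in Lcn2. Saa4 held matches at 245 and 52 bases, Orm2 at 120 and Hpx at 200. The STAT motif TTCNNNGAA occurred in 1 member promoter, that of Apcs, against 7.02% of all promoters. The NF-kappaB consensus occurred in 0 of 8, against 7.25% of all. These are matches of letters in a short window, on either strand, and no match of 1 motif overlapped a match of another. The motifs were chosen after these promoters had been seen. Saa1 and Saa2 also hold the same TTGCACAA in nearly identical sequence. The count of 7 of 8 is therefore a description and no test of enrichment.

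Saa2, the serum amyloid A gene named above, spread most of all members. It was read by 2 probe sets, of which the brighter had a signal of 12083 on replicate 7 and 6261 on replicate 3. The other 5 arrays gave 1349, 1450, 1165, 1625 and 2237 on replicates 1, 2, 4, 6 and 8. Replicate 7 thus lay 7.43-fold and replicate 3 3.85-fold above the median of 1625, and the full range was 10.4-fold. This probe set carries the maker's suffix for sets that can read related genes.

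The dimmer Saa2 probe set was highest on the same arrays. It had 2476 on replicate 7 and 1360 on replicate 3, against 294 to 448 on the other 5 arrays. Replicate 7 was 6.79-fold and replicate 3 3.73-fold above the median of 365. The log2 SD over 7 arrays was 1.29 for the brighter and 1.19 for the dimmer probe set, against 0.15 and 0.18 expected at their levels. These 2 SDs were the 10th and 12th largest of 5719 tested probe sets. The probe set of the pseudogene Saa-ps, a non-member too dim to be tested, was also highest on replicates 7 and 3, at 124 and 70.8, and was under the floor of 50.04 on 4 arrays.

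Lcn2 encodes lipocalin 2, which binds bacterial siderophores and so withholds iron from bacteria. Its brighter probe set had 714 on replicate 7 and 377 on replicate 3, against 240 to 322 on the other 5 arrays. Both high arrays were those of Saa2, but replicate 7 lay only 2.39-fold and replicate 3 1.26-fold above the median. The dimmer Lcn2 probe set ranged from 216 to 297 and was highest on replicate 7 by a small margin, with 279 next on replicate 2. The 2 Lcn2 probe sets therefore disagree on the size of the difference, with log2 SDs of 0.54 and 0.16. Without replicate 7 the log2 SD of the brighter one was 0.24. The dimmer one carries the maker's suffix for sets made under relaxed design rules. Lcn2 lies at chr2:32384637-32387739 in the same build.

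Saa3, a serum amyloid A gene expressed in macrophages and fat as well as in liver, did not follow Saa2. Its signals were lowest on replicate 4, at 210, had a median of 311 and were highest on replicate 1, at 455. Replicate 7 ranked 6 of 7 and replicate 3 ranked 3. The log2 SD was 0.35.

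**Figure D1:**
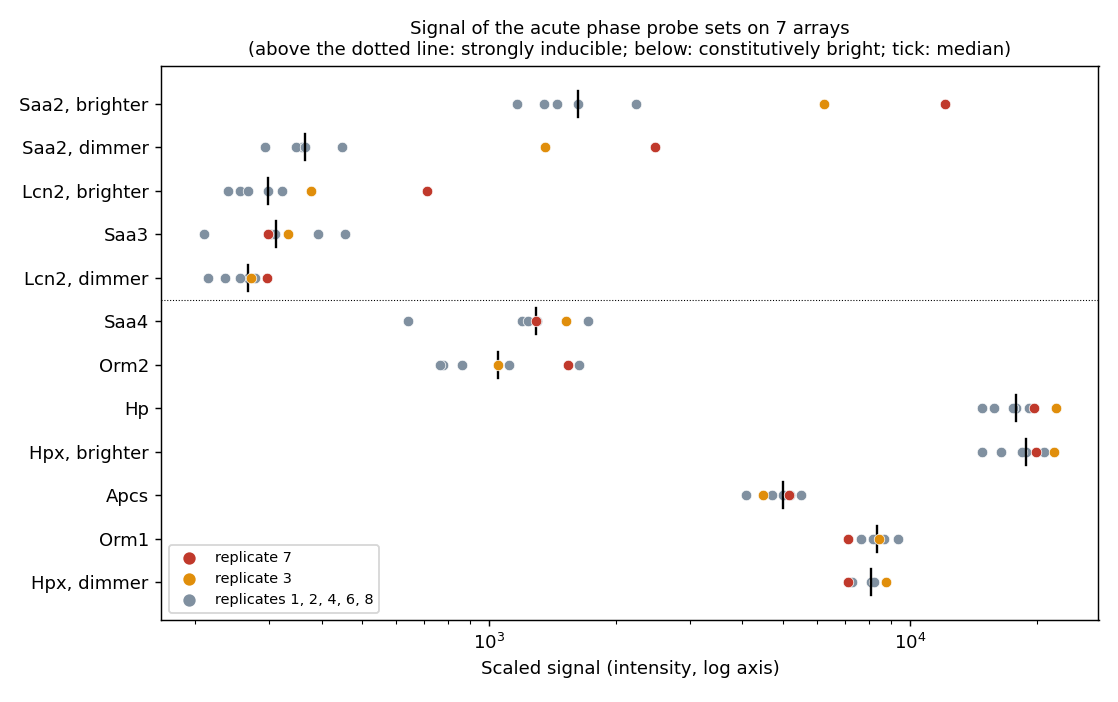
Scaled signal (log axis) of each acute phase probe set on 7 arrays, with replicates 7 and 3 coloured and the median as a tick. Both Saa2 probe sets stand far above their medians on replicates 7 and 3, at 12083 and 6261 for the brighter one, while Hp stays between 14818 and 22218.

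The scavenger proteins of hemoglobin and heme were bright on every array. Hp, haptoglobin, at chr8:109575128-109579172, binds free hemoglobin and had 18163 ± 2478 (SD, n = 7), with a lowest value of 14818 on replicate 4, a median of 17869 and a highest of 22218 on replicate 3. Replicate 7 was second at 19662, so the 2 arrays highest for Saa2 were also the highest for Hp. Hpx, hemopexin, at chr7:105591611-105600116, binds free heme and had 18748 ± 2463 on its brighter probe set, from 14823 on replicate 6 through a median of 18868 to 21937 on replicate 3. Its dimmer probe set had 7832 ± 636 and ranged 1.23-fold. Replicate 3 was highest on both Hpx probe sets, but replicate 7 ranked 3 on the brighter and 7 on the dimmer. Signals of different probe sets do not rank transcript amounts, so no order of levels between genes is given.

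The orosomucoids, small acidic glycoproteins that bind drugs and lipids, differed in spread. Orm1 and Orm2 are neighbours at chr4:63344556-63348163 and chr4:63362449-63365877. Orm1 had 8256 ± 715 (SD, n = 7), from 7144 on replicate 7 to 9354 on replicate 2. Orm2 had 763 on replicate 4 and 779 on replicate 1, a median of 1050, and 1634 and 1542 on replicates 8 and 7. Replicate 7 was thus lowest for Orm1 and second highest for Orm2. The probe set shared by Orm2 and Orm1 had 14601 ± 740, with a log2 SD of 0.07. Orm3, the third gene of the family and no member, had 573 ± 57.5. These genes resemble one another, so part of the signal of each may come from its relatives. The arrays name no build, and these positions come from RefSeq's GRCm38.p6 table.

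Apcs, serum amyloid P, a pentraxin that binds amyloid fibrils, lies at chr1:172893961-172895054. It had 4869 ± 487 (SD, n = 7) and a 1.35-fold range. It was lowest on replicate 6, at 4070, and highest on replicate 2, at 5510, with replicate 7 at rank 3 and replicate 3 at rank 6. Saa4, the constitutive apolipoprotein of the serum amyloid A family, had 1273 ± 334. It had 642 on replicate 4, while the other 6 arrays held 1195 to 1718, and its log2 SD was 0.45 with replicate 4 and 0.20 without it.

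**Figure D2:**
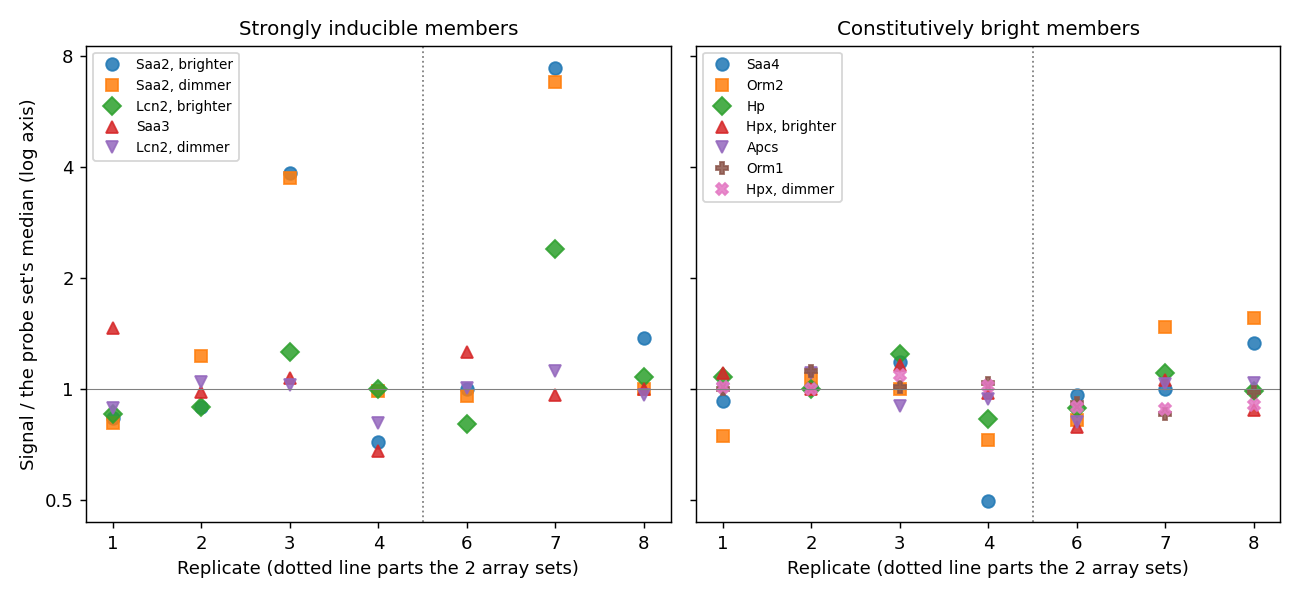
Signal of each member probe set on each array, divided by that probe set's median over 7 arrays (log axis), with strongly inducible members left and constitutively bright members right. The 2 Saa2 probe sets reach 7.43 and 6.79 times their median on replicate 7, and Saa4, at 642 on replicate 4 against a median of 1292, is the lowest point of its class.

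Set side by side, the 5 strongly inducible probe sets had log2 SDs from 0.16 to 1.29 with a median of 0.54. The 7 constitutively bright ones ranged from 0.12 to 0.45 with a median of 0.20, and the median of all 5719 tested probe sets was 0.19. Relative to the SD expected at the same level, the medians were 2.45 for the inducible class, 1.63 for the bright class and 0.990 for all tested. The classes overlap: Saa3, at 0.35, and the dimmer Lcn2 probe set, at 0.16, are classed as inducible. Both had log2 SDs under those of Saa4 and Orm2, at 0.45 and 0.45. All 12 members passed the filter on dim probe sets, at means from 261 to 18748. The members were chosen with results of these data known, so these medians describe them and carry no test.

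In the test of spread by limma, 0 of the 12 members had an adjusted p under 0.05, nor did any of the 5719 probe sets (0%). The adjusted p of that fit was 0.113 for the brighter Saa2 probe set, the lowest value in the fit and shared by 4 probe sets, and 0.202 for the dimmer one. It was 0.558 for Saa4, 0.572 for Orm2 and 0.654 for the brighter Lcn2 probe set, and at least 0.966 for the other 7 members. At an unadjusted p under 0.05 there were 5 members of 12, namely both Saa2 probe sets, the brighter Lcn2 probe set, Saa4 and Orm2, against 6.70% of all tested probe sets. A range of at least 2-fold was seen in 6 of 12 members, those 5 and Saa3, against 12.0% of all tested.

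**Figure D3:**
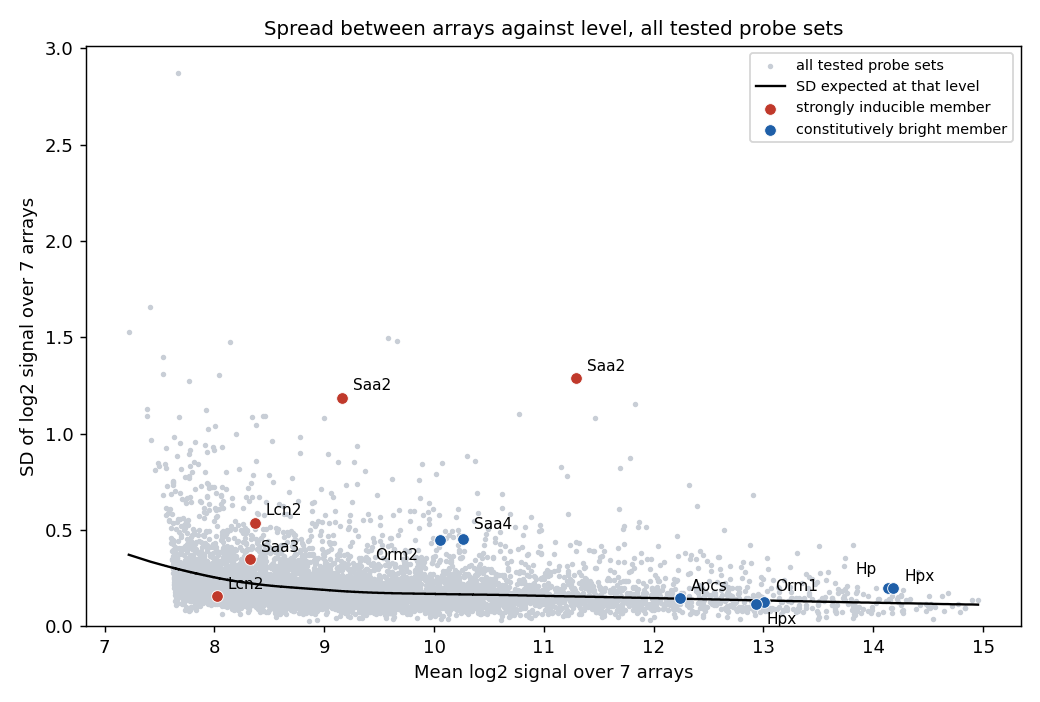
SD of the log2 signal against its mean for 5719 tested probe sets, with the SD expected at each level as a line. Both Saa2 probe sets (log2 SD 1.29 and 1.19) lie far above the line, Saa4 and Orm2 (0.45 each) stand above it, and Apcs, Orm1 and 1 Hpx probe set lie close to it.

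Several members were lowest on replicate 4. This held for the brighter Saa2 probe set, Saa3, Saa4, the dimmer Lcn2 probe set, Orm2 and Hp, 6 of 12 members, against 15.1% of all tested probe sets. For Saa4 the gap was widest, with 642 against 1195 on the next lowest array. For Orm2 it was narrow, with 763 against 779 on replicate 1. Replicate 7 was the highest array for 4 of 12 members, both Saa2 and both Lcn2 probe sets, against 14.4% of all tested. Saa2 drew attention to that array, and without it the count was 2 of 10, both of Lcn2. An array stood apart from the other 6 by a gap beyond Dixon's critical value in 2 of 12 members, Saa4 and the brighter Lcn2 probe set, against 6.08% of all tested.

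The median signal per array lay between 156.9 and 170.1. Spike-in controls, RNAs of microbial origin added to each sample, part the arrays into replicates 1 to 4, with a mean log2 signal of 10.64 to 10.97, and replicates 6 to 8, with 10.20 to 10.24, a division seen in the values that no label names. Of the 12 members, 2 did not overlap between these sets, Orm1 and the dimmer Hpx probe set, against 7.57% of all tested probe sets. Orm1 had 8354 to 9354 in replicates 1 to 4 and 7144 to 8173 in replicates 6 to 8, and that Hpx probe set had 8066 to 8786 and 7124 to 7267 in the same order of sets. With the set as a term in the fit, the log2 SD of Orm1 was 0.08, against 0.13, and that of the Hpx probe set 0.04, against 0.12. The high Saa2 arrays fall in both sets: replicate 3 was highest in the first and replicate 7 in the second, and the log2 SD of the brighter Saa2 probe set was 1.13 within the first set and 1.56 within the second. Replicates 7 and 3 also had the lowest 3' to 5' ratios of the Gapdh control, 0.788 and 0.804, against 0.834 to 0.907 on the other 5 arrays. The part of that ratio in the Saa2 values was not tested. The beta-actin ratio was 1.78 on replicate 7, the highest, and 1.56 on replicate 3, within the 1.31 to 1.74 of the other 5.

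Other genes of the acute phase response came from 3 further lists. Of 23 other positive acute phase genes, 17 were tested, with a median log2 SD of 0.18, against 0.19 for all tested probe sets. None had an adjusted p under 0.05 in the limma fit, 5 had an unadjusted p under 0.05, against 6.70% of all tested probe sets, and 2 ranged at least 2-fold, against 12.0%. Lrg1, a leucine-rich plasma glycoprotein, had 6104 on replicate 7, 5909 on replicate 3 and 3008 to 4977 on the other 5 arrays. Lbp, which presents bacterial lipopolysaccharide to its receptor, had 2039 and 1957 on the same replicates, against 1258 to 1679. Itih3, a hyaluronan-binding inhibitor chain, was highest on replicate 7 at 10384, with 8550 on replicate 1 and 8237 on replicate 3. Replicate 7 was the highest array for 5 of the 17 tested genes, against 14.4% of all tested probe sets.

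The fibrinogen and iron genes had other patterns. Fga, the fibrinogen alpha chain, had its lowest value, 3552, on replicate 7 and its highest, 7407, on replicate 2. Fgb, the fibrinogen beta chain, and Cd14, of the same list, were also lowest on replicate 7, at 5978 and 302. Fgg, the fibrinogen gamma chain, was not, with 7656 on replicate 7, a lowest value of 6498 on replicate 4 and a highest of 9438 on replicate 3. The metallothionein Mt1, which binds zinc, ranged from 5740 on replicate 4 to 11255 on replicate 6. Hamp, hepcidin, which limits iron release into plasma, had 20282 ± 1945 (SD, n = 7), and the copper carrier Cp had 9076 ± 888. Serping1, the C1 inhibitor, and Itih4 ranged 1.25-fold and 1.19-fold, with replicates 7 and 3 the highest for both. Replicate 4 was the lowest array for 8 of the 17 tested genes, among them Lrg1, Itih3, Mt1 and Serping1, against 15.1% of all tested probe sets. It was the lowest for 0 of 9 negative acute phase genes, which are too few to tell 0 from that share.

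The 2 arrays highest for Saa2 were also the highest for 4 of the 17 tested genes of that list, namely Lrg1, Lbp, Serping1 and Itih4, against 6.57% of all tested probe sets. Among members other than Saa2, which set the pattern, this held for 2 of 10, the brighter Lcn2 probe set and Hp. Of 9 tested negative acute phase genes, whose production falls in inflammation, it held for 0. At the share of 6.57%, fewer than 1 of 9 would be called, so this 0 sets no contrast with the positive genes. Those 9 had a median log2 SD of 0.13, and 0 had an unadjusted p under 0.05 in the limma fit, against 6.70% of all tested probe sets, a share at which fewer than 1 of 9 would be called. On replicate 7, Alb, albumin, had 31213 and Apoa1, the main protein of high density lipoprotein, had 27660. On the other 6 arrays Alb ranged from 28122 to 37770 and Apoa1 from 22036 to 30463. Other negative genes were low on replicate 7: Rbp4, the retinol carrier, had its lowest value there, 16222, against 16768 to 21358 on the other 6 arrays. Apoa2, a second apolipoprotein of high density lipoprotein, was also lowest there, at 12184 against 12435 to 14159. The 9 genes thus show no single direction on that array, since Ttr, transthyretin, was highest there at 7774. Ahsg, fetuin A, had 23525 ± 1577 and Serpina6, the corticosteroid carrier, 19818 ± 937, with replicate 7 second lowest for Serpina6 at 18535. The largest log2 SDs of the negative list were those of Igfals, Apoa1 and F12, at 0.19, 0.17 and 0.17.

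**Figure D4:**
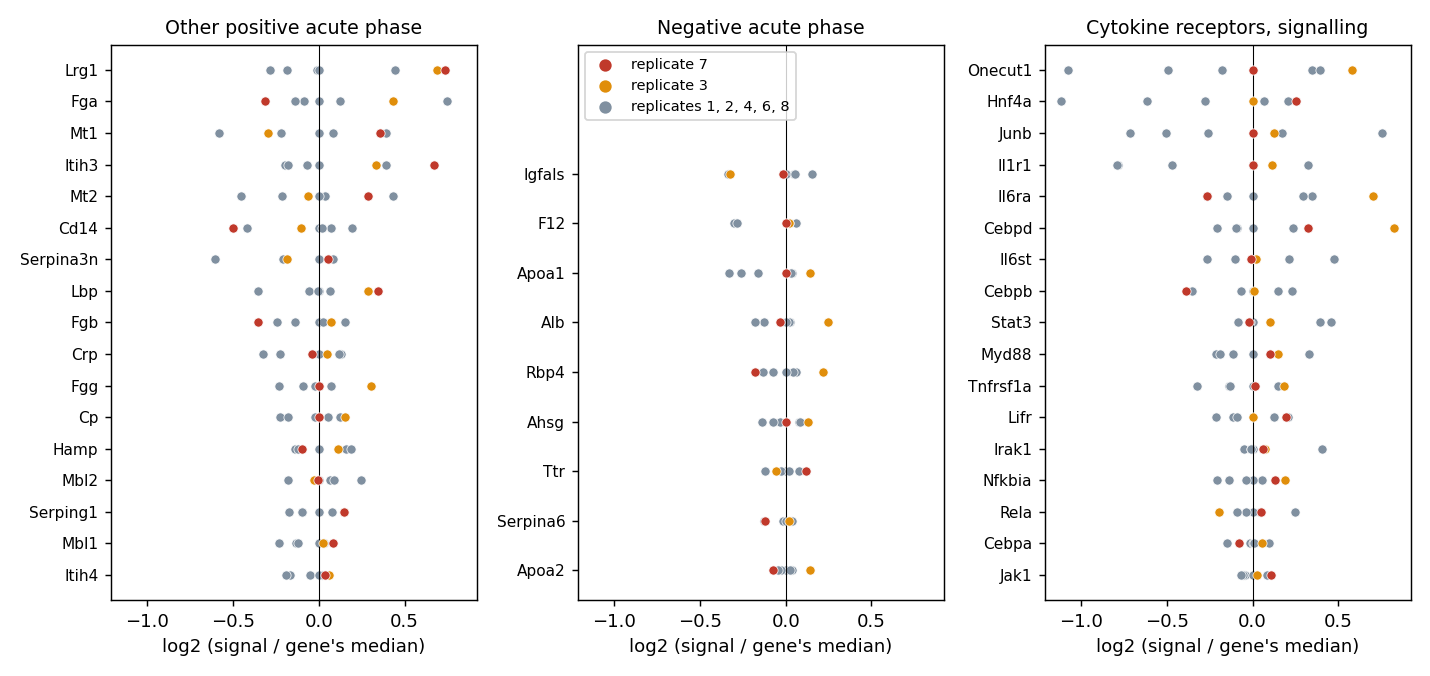
Log2 ratio of each signal to the gene's median over 7 arrays, for tested genes of 3 lists, sorted by spread, with replicates 7 and 3 coloured. Lrg1 and Lbp are highest on both coloured replicates, Fga is lowest on replicate 7, and of the negative genes Rbp4 and Apoa2 are lowest there while Ttr is highest.

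Genes that carry the inflammatory signal were read next. Of 28 cytokine, receptor and signalling genes, 17 were tested, 0 had an adjusted p under 0.05 in the limma fit and 2 had an unadjusted p under 0.05, against 6.70% of all tested probe sets. The cytokines Il6 and Il1b were below the floor on all 7 arrays. Tnf, too dim to be tested, had 114 on replicate 3 and 71.1 on replicate 7. On the other 5 arrays it had 23.6 to 36.5, below the floor. The part of Tnf in the Saa2 values was not tested. Cebpd, a C/EBP factor induced by interleukin-6, had 430 on replicate 7 and 607 on replicate 3, against 297 to 404 on the other 5, and its relatives Cebpa and Cebpb had 11538 ± 640 and 2466 ± 389 (SD, n = 7). Nfkbia, the NF-kappaB inhibitor, was also highest on replicates 3 and 7, at 1064 and 1022, within a 1.32-fold range. Cebpd and Nfkbia were the only 2 of the 17 tested genes with that pattern, against 6.57% of all tested probe sets. Cebpb was lowest on replicate 7, at 1941. The liver factors Hnf4a and Onecut1 had the largest log2 SDs among the 17 tested genes of that list, 0.50 and 0.58, with Hnf4a lowest on replicate 4 at 639 and highest on replicate 7 at 1644, and Onecut1 from 167 on replicate 2 to 525 on replicate 3. Junb, an immediate early factor, ran from 130 on replicate 2 to 359 on replicate 6, while Rela, an NF-kappaB subunit, had 2586 ± 251 and the cytokine receptor Lifr 4492 ± 510.

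Of 10 receptor and clearance genes, 4 were tested and 0 had an unadjusted p under 0.05 in the limma fit, against 6.70% of all tested probe sets. Scarb1, a lipoprotein receptor that also binds serum amyloid A, had 3827 on replicate 7 and 3751 on replicate 3, against 2459 to 3345. Lrp1, which takes up hemopexin with its heme, had 4668 ± 355 and Hmox1, which degrades heme, 1055 ± 175 (SD, n = 7). Slc22a17, a proposed lipocalin 2 receptor, ranged from 234 on replicate 2 to 563 on replicate 6.

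The tissue and other cells that make these proteins were checked by marker lists. The 7 hepatocyte markers summed to 143319 to 175969 per array, and all were tested. They included Serpina1b at 29331 ± 1981, the cytochrome Cyp2e1 at 25440 ± 2768 and the tyrosine aminotransferase Tat at 14908 ± 1889 (SD, n = 7). Neutrophils store lipocalin 2 and macrophages make Saa3. The 12 neutrophil markers summed to 2079 on replicate 7 and 2016 on replicate 3, within the 1625 to 2088 of the 7 arrays, and 6 of the 12 had a mean below the floor. On replicate 7, S100a8 had 96.4, Camp 381, Ltf 39.8, Ngp 31.7 and S100a9 19.3, the last 3 below the floor. S100a8 and S100a9 were highest on replicate 1, at 161 and 90.5. The tested markers Csf3r, a growth factor receptor, and Elane, an elastase, had 981 ± 120 and 237 ± 46.3 (SD, n = 7). Elane was highest on replicates 3 and 7, the arrays with the most Saa2 signal, at 285 and 276, against 143 to 249 on the other 5. Csf3r was second highest on replicate 7, at 1074 against 1169 on replicate 8, and Camp was second highest there too, at 381 against 393 on replicate 6. The part of neutrophil content in the Saa2 and Lcn2 values was not tested.

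The 9 measured macrophage markers summed to 7975 on replicate 7, the highest, and 5933 on replicate 3, the lowest. The Kupffer cell lectin Clec4f had 1889 on replicate 7 against 1348 to 1777 elsewhere, the lysozyme Lyz2 679 against 241 to 495, and the scavenger receptor Marco 68.3 against 7.60 to 11.6, which lie below the floor. Csf1r, the growth factor receptor of macrophages, had 1168 against 604 to 1086, Cd68 542 against 390 to 470 and Cd5l 1045 against 753 to 943. Replicate 7 was the highest array for 6 of 7 tested macrophage markers, against 14.4% of all tested probe sets. The exception was C1qa, with 1696 on replicate 8, 1637 on replicate 1 and 1631 on replicate 7. Of 4 measured adipocyte markers, the sum ran from 1439 to 2174 and was 1716 on replicate 7. Most of that sum came from Lep, leptin, the tested one, with 1538 on replicate 7 and 1466 ± 305 over all arrays. Adipoq, adiponectin, had 62.1 on replicate 7 and 242 on replicate 1. The part of macrophage content in the Saa2 and Lcn2 values was not tested. In whole liver, fewer cells of a type and less RNA per cell cannot be told apart.

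Outside the lists, some probe sets followed the Saa2 and Lcn2 patterns. Likeness was measured as Pearson's r of log2 signals over the 7 arrays, which all probe sets share, and it is given as a description. The dimmer Saa2 probe set had r = 0.968 with the brighter one and the brighter Lcn2 probe set r = 0.914, while Hp had 0.692, Orm2 0.625, Saa3 -0.017 and Orm1 -0.608. For that Lcn2 probe set r was 0.798 without replicate 7, and 20 tested probe sets had a higher r over the 7 arrays. The 5 non-members most like the brighter Saa2 probe set were Hsd3b7, an enzyme of bile acid synthesis (r = 0.992), the phosphoglucomutase Pgm1 (0.982), Mkrn1 (0.965), the growth factor receptor Egfr (0.957) and the helicase Ercc2 (0.950). Hsd3b7 had 7716 on replicate 7 and 6901 on replicate 3, against 4915 to 5532 on the other 5. Its r was 0.979 without replicate 7 and 0.989 without replicate 3. Those 5 probe sets ranged 1.28-fold to 1.57-fold, far less than Saa2. Each likeness is that of a single probe set and not of the gene. The Egfr and Mkrn1 probe sets named had log2 SDs of 0.17 each. Other tested probe sets of Egfr had 0.533 and 0.687 and another of Mkrn1 had 0.247, and none of these was among the 5.

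The 5 most like the brighter Lcn2 probe set were Csad, an enzyme of taurine synthesis (r = 0.944), Bcap31 (0.942), the sphingomyelinase Smpd1 (0.929), the heme enzyme Uros (0.929) and Cyhr1 (0.927). Csad had 1185 on replicate 7 and 567 on replicate 3, against 357 to 492 on the other 5. Without replicate 7, r was 0.644 for Csad and 0.643 for Smpd1, so these 2 likenesses rest on that array.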

How the data were processed

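Liver RNA from 7 mice was measured on Affymetrix U74Av2 arrays, 1 colour and 1 array a mouse. The deposited values are linear intensities per probe set. How the authors scaled them, and against which build, is not given in the sources used here. Each array had been brought to 1 level, since the means after removing 2% of values at each end lay between 500.36 and 500.39.

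Each array was rescaled to a common trimmed mean, values under 0.1 of it (50.04) were set to that floor, and log2 was taken. Of 12422 probe sets that are not Affymetrix controls, 5719 reached a mean of 200.1 (0.4 of that level) and entered the test. Members are probe sets with 1 gene symbol in the platform annotation. In R 4.3.3, limma 3.58.1 fitted a common mean, and each probe set's variance was set against a robust prior following the mean level (prior degrees of freedom 5.27) by an upper-tail F test with Benjamini-Hochberg adjustment. The step was tested on simulated data. The number of arrays limits the precision. Python 3.11.15 was used elsewhere, with pandas 2.3.3, numpy 2.4.6, matplotlib 3.10.9 and Biopython 1.88, with alignment scores of 1 for a match, -1 for a mismatch, -2 to open a gap and -0.5 to extend it.

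The members, their 2 classes and all 10 gene lists were chosen with earlier results of these data known. The 3 promoter motifs were chosen after the members' promoter sequences had been seen, and the counts of probe sets sharing a highest or lowest array, of array sets that do not overlap and of arrays set apart were added after values were seen. Each gene of a list is represented by its probe set of the highest mean. Named genes are all members, per list the brightest genes (4 at most) and the most variable by log2 SD (3 at most), the neutrophil markers that define the cell type, and the 5 probe sets most correlated with Saa2 and with Lcn2. Lbp, Itih3, Fgb, Fgg, Cd14, Cebpd, Nfkbia, Cd68, Marco, Adipoq, Il6, Il1b, Tnf, Rbp4, Apoa2, Ttr, Saa-ps and Orm3 are named outside that rule, after their values were seen.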

Additional observations from a re-analysis of the deposited data

Results flagged for a closer look

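Among members, 2 had an array whose gap to the nearest other, divided by the whole log2 range, exceeded Dixon's 95% critical value for 7 samples (0.568). For Saa4 the lowest array, replicate 4 at 642, had a gap of 0.631 of the range. For the brighter Lcn2 probe set the highest array, replicate 7 at 714, had a gap of 0.586. By chance about 1 in 20 groups is marked in this way, and 6.08% of all tested probe sets were. The Saa2 probe sets were not marked, with 0.281 each, since replicate 3 lies between replicate 7 and the rest.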

How the results depend on the processing

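The count of 0 probe sets past the limma test of spread was the same under every alternative run: 3 other scalings, 2 floors, an offset, 3 filters, 1 value per gene in 2 ways, the array set as a term, 2 other priors and each array left out. At an unadjusted p under 0.05 there were 1480 probe sets without the filter on dim values, where 12422 entered, and 252 genes with all probe sets of a gene averaged, where 4218 entered, against 383 of 5719. The median log2 SD of the strongly inducible members was 1.24 with a filter of 0.8, against 0.54, because that filter leaves only the 2 Saa2 probe sets. Without replicate 7 that median fell to 0.38, and that of the constitutively bright members was 0.21. With all probe sets of a gene averaged, the medians of the 2 classes were 0.36 and 0.18. Single members whose log2 SD moved by over 1.5 times were Saa4 (0.20 without replicate 4, against 0.45), the brighter Lcn2 probe set (0.24 without replicate 7, against 0.54), and Orm1 and the dimmer Hpx probe set with the array set as a term (0.08 and 0.04). Those of Saa2 stayed at 0.89 or more for the brighter and 0.81 or more for the dimmer probe set. The adjusted p of the brighter Saa2 probe set in the limma test ranged from 0.0886 to 0.899 over the alternatives. That range leaves out the 2 other priors, for which only the counts of probe sets were taken. No paired analysis was possible because all arrays form 1 group. No detection calls were used, so dim signals such as those of Il6 and Tnf may be background.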
